A study of Mus musculus with 20 samples.

Results

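The subunits of the oxidative phosphorylation machinery were followed across 4 groups of sorted mouse tumour cells. The members were the genes of the count table whose symbol starts with Nduf (other than Ndufaf), Uqcr, Cox4, Cox5, Cox6, Cox7, Cox8, Atp5, mt-Nd, mt-Co, mt-Cytb or mt-Atp, with pseudogene symbols left out. They came to 99 of 52783 gene identifiers and 98 distinct symbols, 86 encoded in the nucleus and 13 in mitochondrial DNA. By name, complex I (NADH dehydrogenase) held 41 nuclear and 7 mitochondrial genes, complex III (cytochrome bc1) 8 and 1, complex IV (cytochrome c oxidase) 19 and 3, and complex V (ATP synthase) 18 and 2. Ndufa4 and Ndufa4l2 were counted with complex I for their names, although the Ndufa4 protein is known to belong to complex IV. 4 members were at 0 in every library: Cox8b, Cox8c, Ndufs6b and a second identifier for Atp5o.

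Tumours were raised in adult female BALB/cJ mice by injection of cultured 66cl4 or 67NR cells into the mammary fat pad, in the immunocompetent 4T1 model of breast cancer, in which 66cl4 is described as metastatic and 67NR as non-metastatic. The mice received no further treatment, and each tumour was dissociated and sorted for CD45, the pan-leukocyte antigen encoded by Ptprc. The 4 groups were 66cl4 CD45-, 66cl4 CD45+, 67NR CD45- and 67NR CD45+, with 5 animals a tumour and 20 mRNA libraries in all. Each tumour type comes from 1 injected cell line, and the CD45- gate holds the injected cells together with host stroma, so its differences cannot be divided between tumour cells and host cells. In sorted bulk samples, fewer cells of a type and less RNA per cell cannot be told apart.

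Library totals ran from 12960000 to 28080314 counts, at which 3 counts are 1.07e-05 to 2.31e-05% of a library. The cell type labels of 66cl4 animals 5 and 6 contradicted their titles, which were used here. Ptprc ran from 10.6 to 473 normalised counts in the libraries titled CD45- and from 15890 to 28449 in those titled CD45+, those of animals 5 and 6 included. In CD45- cells 6 epithelial markers together reached 6057 to 6844 normalised counts for 66cl4 but 124 to 391 for 67NR, that of 7 macrophage markers 141 to 2071 and 1489 to 5444, and that of 5 endothelial markers 520 to 1025 and 997 to 4135. In CD45+ cells the sum of 7 neutrophil markers was 44190 to 125311 for 66cl4 and 7185 to 52320 for 67NR, and that of 7 macrophage markers 50513 to 81557 and 94503 to 144356. No gene of these 4 lists stayed at 3 counts or fewer in the groups they are given for. These marker levels moved with the comparisons of tumours below, and their part in the results was not tested.

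Oxidative phosphorylation passes electrons from NADH and succinate through complexes I to IV of the inner mitochondrial membrane to oxygen, and the proton gradient this builds drives ATP synthase. Complexes I, III, IV and V each join some subunits encoded in mitochondrial DNA, which is transcribed as long polycistronic RNAs, to many subunits encoded by separate nuclear genes. Several complex IV subunits have paired isoforms whose use differs between tissues, such as the heart and muscle forms Cox6a2 and Cox7a1, the testis forms Cox6b2 and Cox7b2, and the hypoxia-associated Cox4i2.

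The counts of 5 mitochondrial genes had to be read with a stretch of nuclear DNA that repeats them. In the GENCODE annotation of GRCm38, pseudogenes on the minus strand of chromosome 1, between 24611535 and 24615565, copy mt-Co2, mt-Atp6, mt-Co3, mt-Nd3 and the first part of mt-Nd4. Gm28661 matched 681 of the 684 bases of mt-Co2 with no mismatch, Gm10925 matched 678 of 681 of mt-Atp6, Gm28437 matched 783 of 784 of mt-Co3, and Gm28439 matched 876 of 1378 of mt-Nd4. Gm28438 matched 344 of the 345 bases it aligns with mt-Nd3, and the difference was T3C, counted from the first base of the gene. The first 30 bases of mt-Co2 and mt-Nd3 and of their copies are printed 5′ to 3′ to show how little separates them, with capitals at the differing base.
mt-Co2 (chrM:7013-7042, plus strand): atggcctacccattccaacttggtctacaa
Gm28661 (chr1:24615536-24615565, minus strand): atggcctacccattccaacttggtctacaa
mt-Nd3 (chrM:9459-9488, plus strand): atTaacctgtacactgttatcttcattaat
Gm28438 (chr1:24613090-24613119, minus strand): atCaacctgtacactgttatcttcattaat

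Most counts of 4 of these genes were deposited under the copies. The mean count over the 20 libraries was 264794 for Gm28661 against 1901 for mt-Co2, 362429 for Gm10925 against 3386 for mt-Atp6, 37222 for Gm28438 against 30.8 for mt-Nd3, and 385765 for Gm28437 against 57311 for mt-Co3. For mt-Nd4 the gene held more, 287081 against 23494 for Gm28439. mt-Nd3 itself was at 0 in every library except 67NR CD45- animals 4 and 7, while mt-Nd3 with its copy ran from 18473 to 68944 normalised counts. The 5 genes are therefore given with the counts of their copies added, a choice made after seeing the data, and the value without them stands beside it where the call differs. Nuclear members share sequence too, since every 31-base word of Ndufb4c occurs in Ndufb4 and 61.7% of those of Cox6c2 occur in Cox6c, and the split between these pairs is uncertain. mt-Nd6 lies on the opposite strand of mt-Nd5, and whether counting used strand was not stated.

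Transcripts of the 13 mitochondrial genes took a larger share of each library than all nuclear members together. As deposited, without copies, the share in 66cl4 CD45- cells was 15.0, 13.6, 12.2, 11.8 and 12.8% in animals 3 to 7, and in 66cl4 CD45+ cells of the same animals 8.56, 11.7, 7.22, 10.5 and 9.61%. In 67NR CD45- cells it was 21.0, 14.3, 14.8, 12.2 and 14.3% in animals 1, 4, 5, 6 and 7, and in 67NR CD45+ cells 18.4, 11.9, 11.2, 9.08 and 7.19%. Within every animal of either tumour the CD45- share was the higher, and 67NR animal 1 was the highest of its tumour in each gate. Between tumours the ranges overlapped in each gate. With the copies added, the group means were 19.5% ± 1.91 (SD, n = 5) in 66cl4 CD45-, 13.8% ± 2.41 (SD, n = 5) in 66cl4 CD45+, 22.3% ± 4.49 (SD, n = 5) in 67NR CD45- and 16.8% ± 5.89 (SD, n = 5) in 67NR CD45+. The 86 nuclear members took 0.720 to 0.873% of counts in 66cl4 CD45- cells, 0.612 to 0.860% in 66cl4 CD45+, 0.664 to 0.988% in 67NR CD45- and 0.686 to 0.887% in 67NR CD45+, ranges that overlap throughout.

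**Figure D1:**
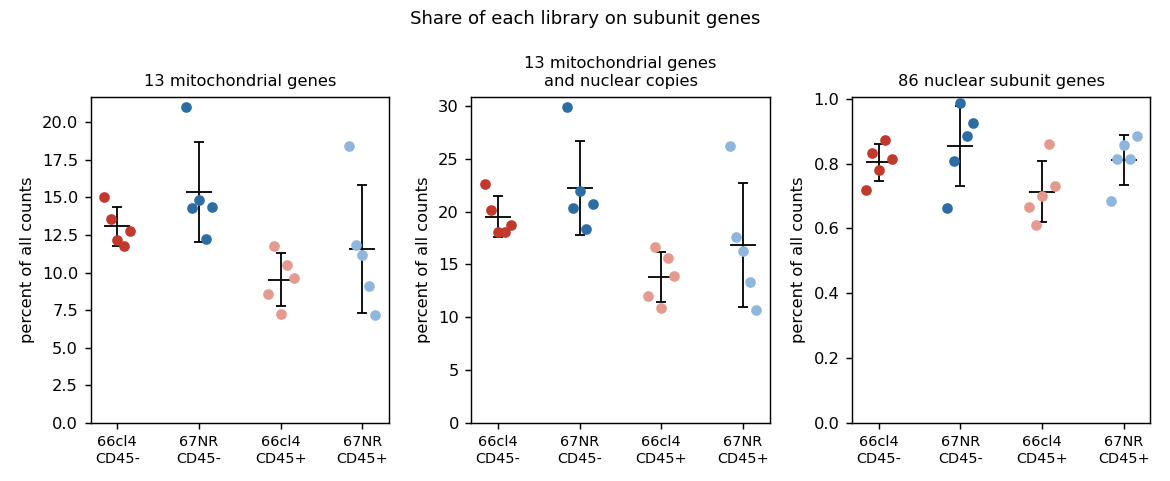
Percent of all counts in each library (points; bars are mean ± SD, n = 5 animals) on the 13 mitochondrial genes, on these with their nuclear copies, and on the 86 nuclear subunit genes, in the 4 groups. Mitochondrial shares lie lower in CD45+ than in CD45- cells of each animal, from 7.19 to 21.0% without copies, while nuclear shares stay under 1% with overlapping ranges.

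Per length, as length-scaled transcript abundance (TPM, computed with reference lengths), the group means of the nuclear members spread over a wide range. In 66cl4 CD45- cells the highest were Atp5h at 841 TPM, a subunit of the stator stalk of ATP synthase, Uqcrh at 755 TPM, the hinge protein of complex III, and Ndufa4 at 639 TPM. In 67NR CD45- cells the highest nuclear means were Ndufa6 at 727 TPM, an accessory subunit of complex I, Cox8a at 699 TPM, the ubiquitous form of a small complex IV subunit, and Atp5l at 653 TPM, a membrane subunit of ATP synthase. The catalytic beta subunit of ATP synthase, Atp5b, averaged 233 TPM in 66cl4 CD45- cells and 345 TPM in 67NR CD45- cells. Mitochondrial genes lay far above these, with mt-Co1, the catalytic subunit of complex IV, at 53363 and 48486 TPM in the same groups and mt-Co2 with its copy at 29535 and 28026 TPM.

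The comparison of 66cl4 with 67NR asks what separates the metastatic from the non-metastatic tumour, and in CD45- cells the subunits did not move as a block. Of 91 members with enough counts to test, 24 were higher and 34 lower in 66cl4 at an adjusted p under 0.05 by edgeR's quasi-likelihood test, where 33.3% of the 14844 genes tested were higher and 34.1% lower. In all 63.7% of members passed against 67.4% of all genes tested, so this split is not read as particular to the subunits. 5 members rose and 8 fell by more than 1 on the log2 scale, 14.3% of those tested against 32.2% of all genes tested. Their median log2 fold change was -0.09, and that of all genes tested was -0.01. The middle of the nuclear members spanned an interquartile range of 0.81 on the log2 scale, against 1.25 for all genes tested. All genes tested were not matched to the members for level of expression, here or in the comparisons below. Counts by complex were split as well, and are likewise not read as particular to the subunits. Nuclear complex I had 11 higher and 12 lower of 39 tested, complex III 3 and 3 of 8, complex IV 3 and 8 of 15, and complex V 5 and 6 of 17. Without 66cl4 animals 5 and 6, the numbers were 17 higher and 29 lower of 91, where 29.8% of 15664 genes were higher and 30.7% lower.

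**Figure D2:**
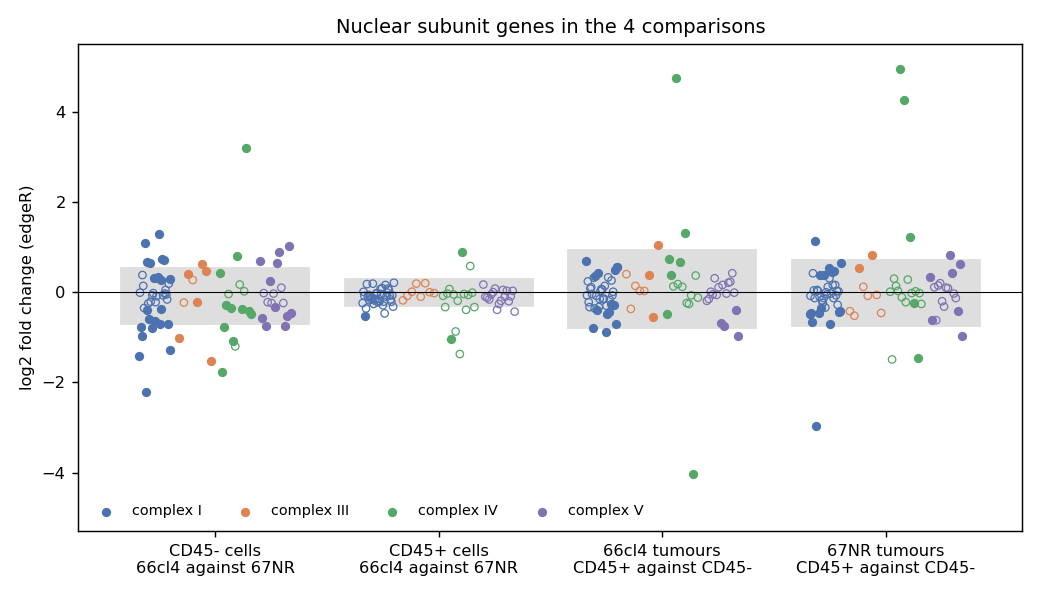
Log2 fold change (edgeR) of each tested nuclear subunit gene in the 4 comparisons, coloured by complex and filled where the adjusted p is under 0.05; the grey band spans the quartiles of all genes tested. Most subunits lie inside the band, most narrowly in CD45+ cells, and the points past 3 on either side are the complex IV isoforms Cox7b2, Cox6a2 and Cox6b2, the size of the last pair being unsure since their CD45- libraries held 6 counts or fewer.

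The greatest rise in CD45- cells was in Cox7b2, the testis form of a small complex IV subunit. Its normalised counts were 357, 599, 520, 649 and 573 in 66cl4 CD45- animals 3 to 7. In 67NR CD45- cells they were 58.8, 43.5, 92.2, 56.3 and 50.1 in animals 1, 4, 5, 6 and 7. The groups were far apart, a log2 fold change of 3.20 ± 0.21 (SE, adjusted p = 1.55e-08, edgeR). Its partner Cox7b, the form of most tissues, had a log2 fold change of 0.02 ± 0.12 (SE, adjusted p = 0.887, edgeR). Per length, Cox7b2 made up 16.6% ± 1.13 (SD, n = 5) of the TPM of the pair in 66cl4 CD45- cells and 2.14% ± 0.441 (SD, n = 5) in 67NR CD45- cells. In CD45+ cells that share was 1.29% ± 0.790 (SD, n = 5) in 66cl4 and 0.771% ± 0.446 (SD, n = 5) in 67NR.

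2 other isoforms were lower in 66cl4. Ndufa4l2, a hypoxia-inducible relative of Ndufa4, was at 13.3, 15.0, 13.3, 5.31 and 23.0 normalised counts in 66cl4 CD45- cells and at 45.6, 73.5, 92.2, 68.8 and 56.3 in 67NR CD45- cells. The groups did not overlap. The gene passed the filter on low counts through its 67NR libraries, so no size of change is given. Its 66cl4 libraries held at most 24 counts. Ndufa4 itself moved the other way, with 3256, 4298, 3965, 5442 and 4431 normalised counts in 66cl4 against 1603, 1987, 2464, 1937 and 2180 in 67NR. That was a log2 fold change of 1.10 ± 0.14 (SE, adjusted p = 8.33e-06, edgeR), again without overlap. Ndufa4l2 thus held 0.168% ± 0.0757 (SD, n = 5) of the TPM of the pair in 66cl4 and 1.59% ± 0.255 (SD, n = 5) in 67NR. Cox4i2 was at 5.31, 9.98, 13.3, 4.25 and 3.99 normalised counts in 66cl4 and at 7.02, 47.3, 50.1, 17.97 and 11.3 in 67NR CD45- cells. Its groups overlapped through 67NR animals 1 and 7, and the log2 fold change was -1.76 ± 0.56 (SE, adjusted p = 0.0126, edgeR). The size of this change is unsure, since the 66cl4 libraries held at most 16 counts. Cox4i2 and Ndufa4l2 are also known from pericytes, whose 6 markers summed in CD45- cells to 1848 to 3132 normalised counts for 66cl4 and to 1740 to 5426 for 67NR, none of them at 3 counts or fewer, and the part of these cells was not tested.

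**Figure D3:**
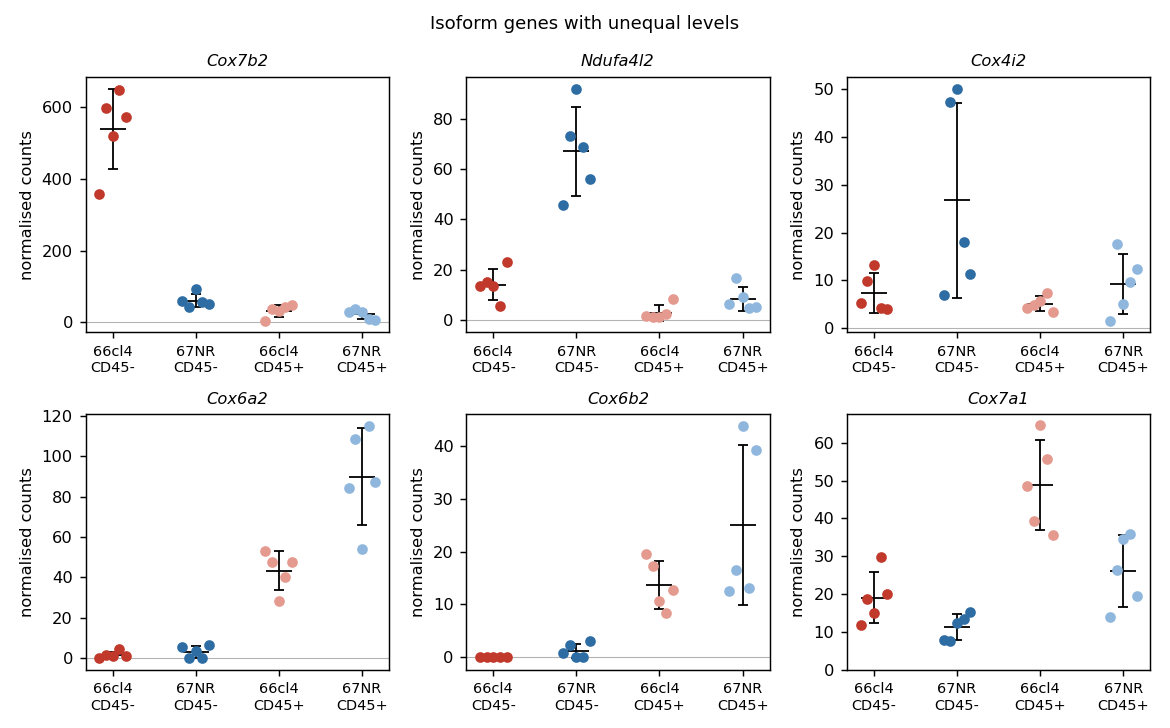
Normalised counts of 6 isoform genes in each library (points; bars are mean ± SD, n = 5 animals) of the 4 groups. Cox7b2 stands out in 66cl4 CD45- cells (357 to 649), Ndufa4l2 in 67NR CD45- cells (45.6 to 92.2), and Cox6a2, Cox6b2 and Cox7a1 have their highest values in CD45+ cells.

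Among the other subunits of complex I, Ndufb8, an accessory subunit of the membrane arm, was at 2007, 1952, 1699, 2252 and 1694 normalised counts in 66cl4 CD45- cells and at 477, 611, 1110, 855 and 988 in 67NR. Its log2 fold change was 1.28 ± 0.20 (SE, adjusted p = 0.000115, edgeR), with no overlap. Ndufa1, an accessory subunit encoded on the X chromosome, went down, with 425, 486, 400.4, 524 and 418 normalised counts in 66cl4 and 986, 1178, 1654, 1156 and 1209 in 67NR. Its log2 fold change was -1.42 ± 0.13 (SE, adjusted p = 4.19e-07, edgeR). Ndufv2, a core iron-sulphur subunit of the NADH-binding module, was at 1193, 1158, 1118, 1477 and 1167 against 2567, 2530, 3652, 2967 and 3586, a log2 fold change of -1.29 ± 0.13 (SE, adjusted p = 6.23e-07, edgeR). All 66cl4 libraries lay below all 67NR libraries for Ndufa1 and Ndufv2. Core subunits differed in direction: Ndufs1 rose by 0.74 ± 0.10 on the log2 scale (SE, adjusted p = 1.38e-05, edgeR) and Ndufs3 by 0.71 ± 0.08 (SE, adjusted p = 4.6e-06, edgeR), while Ndufs8 fell by 0.71 ± 0.17 (SE, adjusted p = 0.00212, edgeR).

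In complex III, Uqcrq, a small subunit that binds ubiquinone, was at 688, 744, 654, 959 and 690 normalised counts in 66cl4 CD45- cells and at 1433, 1586, 3409, 2091 and 2476 in 67NR. No library of 66cl4 reached those of 67NR, and the log2 fold change was -1.53 ± 0.22 (SE, adjusted p = 6.4e-05, edgeR). Uqcrfs1, the Rieske iron-sulphur subunit, rose by 0.63 ± 0.09 (SE, adjusted p = 2.93e-05, edgeR). In complex IV, Cox6c fell by 1.08 ± 0.15 (SE, adjusted p = 1.67e-05, edgeR) and Cox5a by 0.78 ± 0.11 (SE, adjusted p = 1.8e-05, edgeR), and the ubiquitous Cox4i1 had 0.42 ± 0.15 (SE, adjusted p = 0.0193, edgeR). The call of Cox4i1 was lost without 66cl4 animals 5 and 6 (adjusted p = 0.0601), with the replicate block (0.0754) and without 67NR animal 4 (0.0521). Between tumours that block pairs libraries of different mice by the number in their titles, so there it is no paired design. In complex V, Atp5o, the stator subunit that confers oligomycin sensitivity, was at 3598, 3741, 3560, 3924 and 3505 normalised counts in 66cl4 and at 1422, 1681, 2270, 1824 and 2040 in 67NR. The log2 fold change of Atp5o was 1.02 ± 0.11 (SE, adjusted p = 2.46e-06, edgeR). The catalytic core of the enzyme was split, since its alpha subunit Atp5a1 rose by 0.69 ± 0.07 (SE, adjusted p = 1.52e-06, edgeR) and its beta subunit Atp5b fell by 0.57 ± 0.09 (SE, adjusted p = 4.84e-05, edgeR).

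Mitochondrial transcripts of CD45- cells also moved apart from each other. With copies added, 1 of 13 was higher and 6 were lower in 66cl4, with a median log2 fold change of -0.28; as deposited, 12 could be tested, 2 higher and 5 lower, with a median of -0.06, where 33.3% of all genes tested were higher and 34.1% lower. The lowest was mt-Nd2, a core subunit of complex I, at 70046, 64480, 58590, 51735 and 62841 normalised counts in 66cl4 and 193252, 122594, 129504, 113273 and 124715 in 67NR. Its log2 fold change was -1.12 ± 0.15 (SE, adjusted p = 1.88e-05, edgeR), and -0.96 without 67NR animal 1, the highest library. mt-Cytb, the only mitochondrial subunit of complex III, lay between 220481 and 286151 for 66cl4 and between 338424 and 574885 for 67NR, a log2 fold change of -0.80 ± 0.16 (SE, adjusted p = 0.000424, edgeR). mt-Nd4l, mt-Nd4, mt-Nd3 and mt-Nd1 had log2 fold changes of -0.79, -0.70, -0.55 and -0.45, all with an adjusted p under 0.05 by edgeR, but that of mt-Nd1 was lost under 7 alternatives. These were the replicate block, all 20 libraries in the fit, and fits without 66cl4 animal 5, 6 or 7, without 66cl4 animals 5 and 6 together or without 67NR animal 1, with adjusted p-values of mt-Nd1 from 0.0519 to 0.132 by edgeR. The complex IV genes mt-Co1, mt-Co2 and mt-Co3 had values of 0.12 ± 0.19, 0.07 ± 0.15 and 0.13 ± 0.16 (SE) and did not pass. mt-Nd6 went up, at 183, 286, 374, 321 and 445 normalised counts in 66cl4 against 162, 135, 141, 148 and 101 in 67NR, a log2 fold change of 1.26 ± 0.20 (SE, adjusted p = 8.65e-05, edgeR). The share of counts on the mitochondrial ribosomal RNAs moved with it, at 0.817% ± 0.0910 (SD, n = 5) in 66cl4 CD45- and 0.451% ± 0.105 (SD, n = 5) in 67NR CD45- cells, with no overlap, and at 0.502% and 0.510% on average in 66cl4 and 67NR CD45+ cells. Its part in the result for mt-Nd6 was not tested. mt-Nd5, the gene on the other strand there, had 0.36 ± 0.15 (SE, adjusted p = 0.0525, edgeR). It passed as higher in 66cl4 by DESeq2 (adjusted p = 0.0335). By edgeR it passed with no filter (adjusted p = 0.015) and with the replicate block (0.016). It also did so without 66cl4 animals 5 and 6 (0.0323), without 66cl4 animal 6 (0.0264) and without 67NR animal 1 (0.00393). mt-Atp6 was higher as deposited, at 0.86 ± 0.32 (SE, adjusted p = 0.0343, edgeR), and turned to -0.28 ± 0.17 (SE, adjusted p = 0.149, edgeR) with its copy added.

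**Figure D4:**
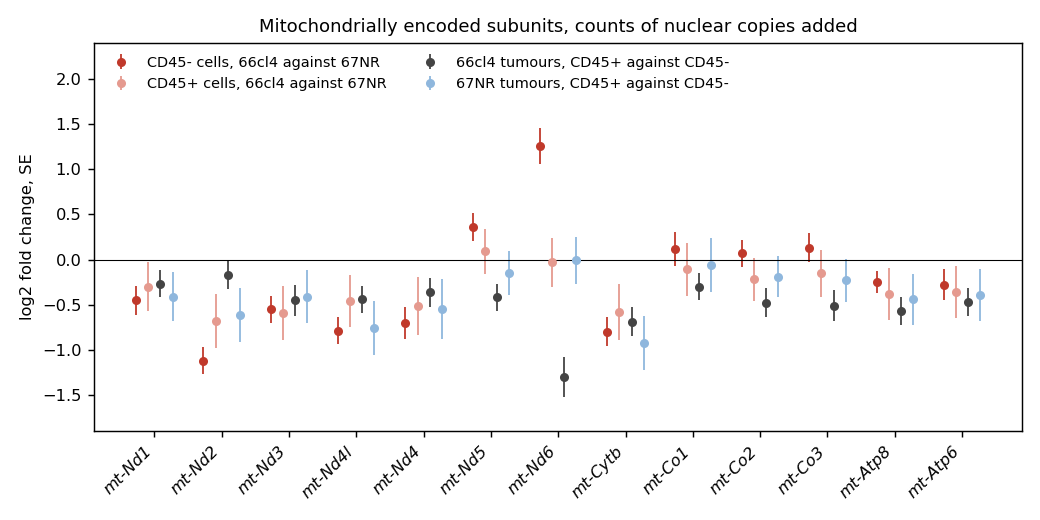
Log2 fold change (edgeR, bars are SE) of the 13 mitochondrially encoded subunits in the 4 comparisons, with the counts of nuclear copies added. In CD45- cells mt-Nd2 (-1.12) and mt-Nd6 (1.26) lie at opposite ends and the 3 mt-Co genes lie near 0; in both tumours most genes lie below 0 in CD45+ against CD45- cells.

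In CD45+ cells few subunits differed between the tumours. Of 91 tested, 1 was higher and 2 were lower in 66cl4, where 10.9% of the 14676 genes tested were higher and 11.3% lower, and 1 member changed by more than 1 on the log2 scale where 11.8% of all genes did. At an unadjusted p under 0.05 there were 10 members. The share of all genes at that limit is not given, so this count is not read as particular to the members. The median was -0.10 for members and 0.01 for all genes tested, and the interquartile range of the nuclear members was 0.20 against 0.60 for all genes. No mitochondrial gene passed with or without copies, and their median was -0.36 with copies.

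Cox6a2 was at 52.9, 47.8, 27.96, 40.0 and 47.3 normalised counts in 66cl4 CD45+ cells and at 84.3, 109, 53.9, 115 and 87.5 in 67NR CD45+ cells. The groups touched without overlap, the log2 fold change was -1.04 ± 0.25 (SE, adjusted p = 0.0127, edgeR), and the call was lost without 66cl4 animals 5 and 6 (adjusted p = 0.0604) and with all 20 libraries in the fit (0.0666). Ndufa12, an accessory subunit of complex I, was at 568, 512, 581, 831 and 582 against 965, 976, 921, 804 and 804, where 66cl4 animal 6 alone reached into the 67NR range. Its log2 fold change was -0.53 ± 0.14 (SE, adjusted p = 0.0205, edgeR), and its adjusted p became 0.052 without 66cl4 animal 5, 0.053 without 67NR animal 4 and 0.135 with the replicate block. Cox7a1 was at 48.7, 39.2, 64.6, 55.8 and 35.5 against 14.1, 26.4, 34.6, 36.0 and 19.6, ranges that met at their ends. Its log2 fold change was 0.90 ± 0.30 (SE, adjusted p = 0.0477, edgeR), and the call was lost with no filter (adjusted p = 0.0833), with the replicate block (0.133), without 66cl4 animals 5 and 6 (0.23) and without any of 8 of the 10 libraries left out in turn, all but 66cl4 animal 7 and 67NR animal 6.

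The few calls in CD45+ cells rested on which animals were kept. Without 66cl4 animals 5 and 6, 13 of 91 members (14.3%) were lower in 66cl4 and none was higher, where 8.10% of 15257 genes were lower and 7.18% higher. Among the 13 were the complex I subunits Ndufc2 at -0.72, Ndufa12 at -0.69 and Ndufv2 at -0.60, the complex III subunit Uqcr10 at -0.51 and the complex V subunit Atp5g2 at -0.51. Leaving out only the CD45+ library of 66cl4 animal 6 gave 15 lower (16.5% of members, against 12.1% of 14920 genes), and leaving out only that of animal 5 gave 1 (1.10% against 8.54% of 14926 genes). Each of the 13 changes was smaller than 1 on the log2 scale.

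The comparison of gates within a tumour asks how leukocytes differ from the remaining cells. In 66cl4 tumours 13 of 90 tested members were higher in CD45+ cells and 22 lower, where 36.5% of the 14916 genes tested were higher and 36.5% lower. A change over 1 on the log2 scale was found in 6.67% of members and in 44.4% of all genes tested. The medians were -0.07 and 0.00. In 67NR tumours 16 of 93 tested were higher and 17 lower, where 32.6% of the 15063 genes tested were higher and 34.7% lower, and 6.45% of members passed the larger limit against 39.8% of all genes. The medians were -0.05 for members and for all genes tested. The gates are leukocytes and non-leukocytes by the sort, so that cell type and gate cannot be told apart. Both gates of an animal come from the same tumour, and these fits did not use that pairing. With the animal as a block 16 members were higher and 27 lower in 66cl4 tumours, and 19 and 23 in 67NR tumours. The share of all genes under that block is not given.

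The isoforms of complex IV held the greatest differences between gates. Cox7b2 fell in CD45+ cells of 66cl4 tumours to 4.17, 36.3, 31.8, 42.1 and 48.2 normalised counts, a log2 fold change of -4.03 ± 0.37 (SE, adjusted p = 1.17e-06, edgeR). In 67NR CD45+ cells Cox7b2 was at 29.7, 37.4, 27.4, 8.39 and 7.20, below every CD45- library of that tumour, with -1.45 ± 0.44 (SE, adjusted p = 0.0115, edgeR). Cox6a2 was nearly absent from CD45- cells, with 0, 1.25, 0.833, 4.25 and 0.998 normalised counts in 66cl4 and 5.27, 0, 3.51, 0 and 6.14 in 67NR. The CD45+ libraries, at 27.96 to 52.9 in 66cl4 and 53.9 to 115 in 67NR, lay above every CD45- library. The gene passed the filter on low counts through its CD45+ libraries, and the CD45- libraries held at most 4 and 6 counts, so no size of change is given. Cox6a2 stayed minor beside Cox6a1 in CD45+ cells, at 1.26% ± 0.364 (SD, n = 5) of the TPM of the pair in 66cl4 and 2.71% ± 0.888 (SD, n = 5) in 67NR.

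Cox6b2 was at 0 in all 5 libraries of 66cl4 CD45- cells and at 19.5, 17.2, 10.6, 8.42 and 12.7 normalised counts in 66cl4 CD45+ cells, at least 4.71-fold higher on the group means, with the CD45- libraries set at 3 counts each. It did not pass the filter of that fit. In 67NR tumours Cox6b2 was at 0.878, 2.25, 0, 0 and 3.07 in CD45- and 12.5, 16.5, 43.7, 13.2 and 39.1 in CD45+ cells, again without overlap. It entered that fit through its CD45+ libraries, and no size of change is given. Cox7a1 rose in CD45+ cells as well, by 1.31 ± 0.27 (SE, adjusted p = 0.000811, edgeR) in 66cl4 and 1.22 ± 0.33 (SE, adjusted p = 0.0059, edgeR) in 67NR, where its groups overlapped through animals 1 and 7. The skeletal muscle markers, 8 genes summed, were at 91.5 to 208 normalised counts for 66cl4 CD45+ and 90.5 to 150 for 67NR CD45+ cells, below the 393 to 580.0 of 66cl4 CD45- and overlapping the 124 to 170 of 67NR CD45- cells. Acta1 and Myh4 stayed at 3 counts or fewer in CD45+ cells of either tumour, and Myh1 and Ckm did so in 66cl4. Ndufa4l2 was lower in CD45+ cells of 67NR tumours, at 6.24, 16.5, 9.15, 4.79 and 5.14 normalised counts, below every CD45- library of that tumour. It entered the fit of the 67NR gates through its CD45- libraries, and no size of change is given. In 66cl4 tumours Ndufa4l2 was left out by the filter, at 1.39, 0.956, 0.964, 2.10 and 8.45 in CD45+ cells against the 5.31 to 23.0 of CD45- cells, ranges that overlapped through CD45+ animal 7 and CD45- animal 6.

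Of the widely used subunits, Cox5a, which sits on the matrix side of complex IV, was at 1862, 1559, 1744, 1992 and 1749 normalised counts in 66cl4 CD45+ and 978, 1022, 1072, 1154 and 978 in 66cl4 CD45- cells. The log2 fold change of Cox5a was 0.74 ± 0.09 (SE, adjusted p = 8.69e-06, edgeR), without overlap. Uqcrq rose in 66cl4 CD45+ cells by 1.04 ± 0.21 (SE, adjusted p = 0.000742, edgeR) and Ndufa1 by 0.70 ± 0.15 (SE, adjusted p = 0.000925, edgeR), and Ndufb8 fell by 0.89 ± 0.14 (SE, adjusted p = 7.31e-05, edgeR). In 67NR tumours Atp5j, which couples the stator of ATP synthase, was at 1801, 1856, 1930, 2041 and 1927 in CD45+ and 1112, 1188, 1046, 1076 and 972 in CD45- cells. This was a log2 fold change of 0.82 ± 0.08 (SE, adjusted p = 3.95e-06, edgeR), and Ndufa4 rose there by 1.13 ± 0.13 (SE, adjusted p = 1.45e-05, edgeR). Atp5s, a coupling factor of ATP synthase, was lower in CD45+ cells of 66cl4 tumours, at -0.96 ± 0.21 (SE, adjusted p = 0.00108, edgeR), and of 67NR tumours, at -0.98 ± 0.15 (SE, adjusted p = 0.000139, edgeR). Its counts were 52.9 to 114 in CD45+ and 134 to 165 in CD45- cells of 66cl4, and 87.5 to 132 and 189 to 221 in 67NR.

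No mitochondrial gene was higher in CD45+ cells of either tumour. With copies added, 9 of 13 were lower in 66cl4 tumours, with a median log2 fold change of -0.45, and 2 of 13 in 67NR tumours, with a median of -0.41, where 36.5% and 34.7% of all genes tested were lower. As deposited, 7 and 3 of 12 were lower. The gates of an animal are paired, and with the animal as a block 7 of 12 were lower in 67NR tumours, mt-Nd1, mt-Nd2, mt-Nd4 and mt-Atp8 being added. The share of all genes lower under that block is not given. mt-Nd6 was at 134, 124, 103, 180 and 125 normalised counts in 66cl4 CD45+ cells, all under the CD45- libraries, a log2 fold change of -1.30 ± 0.22 (SE, adjusted p = 0.000161, edgeR). In 67NR it was -0.01 ± 0.26 (SE, adjusted p = 0.971, edgeR). mt-Cytb had -0.69 ± 0.16 (SE, adjusted p = 0.00184, edgeR) in 66cl4 and -0.92 ± 0.30 (SE, adjusted p = 0.0185, edgeR) in 67NR, where its groups overlapped through the high CD45+ library of animal 1. mt-Nd4l passed in 67NR at -0.76 ± 0.30 (SE, adjusted p = 0.04, edgeR). As deposited, mt-Nd4l had an adjusted p of 0.0402 by edgeR and lost the call with no filter (adjusted p = 0.0676) and without any of 7 of the 10 libraries left out in turn, CD45- animals 1, 4, 5 and 7 and CD45+ animals 5, 6 and 7, with log2 fold changes from -0.80 to -0.55. mt-Atp6 in 66cl4 was -0.47 ± 0.16 (SE, adjusted p = 0.0182, edgeR) with its copy and -1.67 ± 0.36 (SE, adjusted p = 0.00133, edgeR) without.

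Whether the difference between tumours depends on the gate was tested directly as an interaction over all 20 libraries. It is the log2 fold change between tumours in CD45+ cells minus that in CD45- cells. The pairing of gates within an animal was not used in that fit. Of 93 tested members, 12 lay above 0 and 14 below, where 21.9% of the 16453 genes tested lay above and 21.2% below, and the medians were 0.01 for members and 0.03 for all genes. In each of the members described here the tumour difference was the smaller in CD45+ cells. These members were named for their large changes in CD45- cells, so this is in part built in by that choice. For Cox7b2 it was 3.20 in CD45- and 0.58 in CD45+ cells, an interaction of -2.57 ± 0.59 (SE, adjusted p = 0.00176, edgeR). For Uqcrq it was -1.53 and -0.02, an interaction of 1.51 ± 0.32 (SE, adjusted p = 0.000834, edgeR), and for Ndufa1 -1.42 and -0.24, an interaction of 1.20 ± 0.20 (SE, adjusted p = 9.02e-05, edgeR). Ndufb8, Ndufa4 and Atp5o, all higher in 66cl4 CD45- cells, had interactions of -1.19 ± 0.27, -1.15 ± 0.27 and -0.99 ± 0.19 (SE). Their adjusted p-values by edgeR were 0.00142, 0.00209 and 0.000381. Of the mitochondrial genes, mt-Nd6 passed with copies added, at -1.27 ± 0.35 (SE, adjusted p = 0.00627, edgeR).

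**Figure D5:**
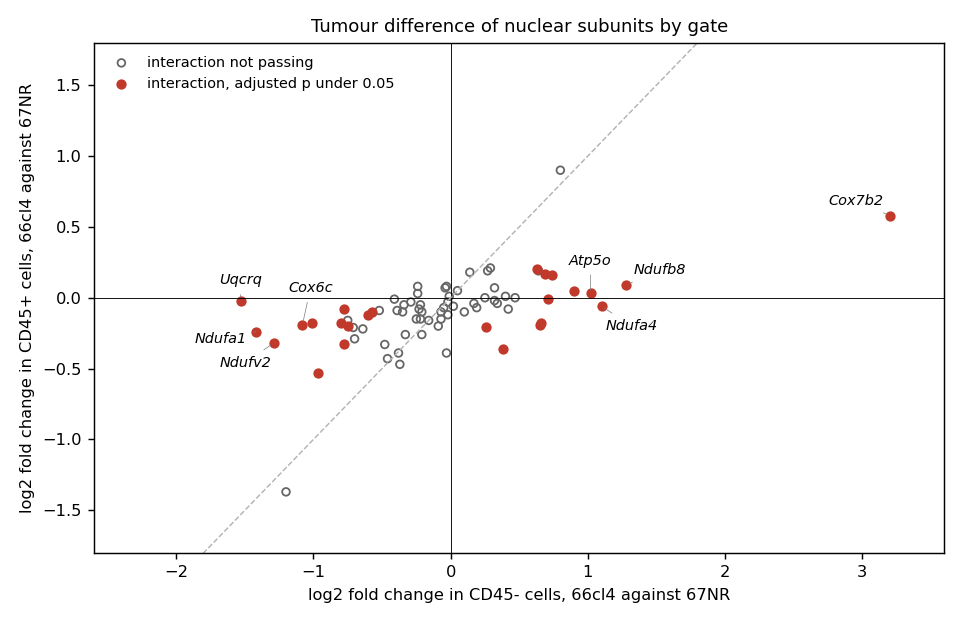
Log2 fold change of each nuclear subunit gene between 66cl4 and 67NR in CD45- cells (horizontal) and in CD45+ cells (vertical), edgeR; filled points have an interaction with an adjusted p under 0.05 and the dashed line marks equal differences. Cox7b2 (3.20 and 0.58) and Uqcrq (-1.53 and -0.02), named for their large changes in CD45- cells, lie farther from 0 on the horizontal than on the vertical axis.

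Other genes of the pathway, from lists chosen with earlier results known, were counted the same way. In CD45- cells, where 33.3% of all genes tested were higher and 34.1% lower, complex II, which feeds electrons from succinate, had 3 of 4 subunits higher in 66cl4 and none lower, up to 0.50 ± 0.14 for Sdhd (SE, adjusted p = 0.00577, edgeR). The tricarboxylic acid cycle had 8 higher and 4 lower of 18, with a median log2 fold change of 0.16, and Pdha1 of pyruvate dehydrogenase at 1.38 ± 0.09 (SE, adjusted p = 5.67e-09, edgeR). Complex I assembly factors had 3 higher and 4 lower of 14, complex III assembly factors 1 and 2 of 6, complex IV assembly factors 7 and 3 of 19 and ATP synthase assembly factors 1 and 0 of 3, with Cox16 at 1.99 ± 0.12 (SE, adjusted p = 3.8e-09, edgeR) and Atpaf1 at 1.96 ± 0.14 (SE, adjusted p = 2.71e-08, edgeR). Mitochondrial ribosomal proteins, which make the mitochondrially encoded subunits, had 31 higher and 13 lower of 78 with a median of 0.10, and cytosolic ribosomal proteins 25 and 13 of 83 with a median of 0.11. Genes of mitochondrial DNA and transcript maintenance had 5 and 2 of 14, regulators of biogenesis 3 and 2 of 8, carriers and channels 2 and 4 of 7, and cytochromes c and c1 0 and 1 of 2.

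In CD45+ cells, where 10.9% of all genes tested were higher and 11.3% lower, the counts were 0 of 4 for complex II, 2 higher and 2 lower of 18 for the tricarboxylic acid cycle, 0 and 2 of 78 for mitochondrial ribosomal proteins, and 2 and 0 of 8 for regulators, with Hif1a, the oxygen-sensing transcription factor, at 0.98 ± 0.21 (SE, adjusted p = 0.00712, edgeR). Between gates of 66cl4 tumours, where 36.5% of all genes tested were higher and 36.5% lower, CD45+ cells had 12 mitochondrial ribosomal proteins higher and 31 lower of 78 (median -0.22), 4 cytosolic ribosomal proteins higher and 54 lower of 85 (median -0.52), and complex III assembly factors 0 and 5 of 6, with Lyrm7 at -1.51 ± 0.25 (SE, adjusted p = 0.000112, edgeR). Maintenance genes had 3 higher and 8 lower of 14, with the helicase Twnk at -1.94 ± 0.16 (SE, adjusted p = 3.33e-07, edgeR). Between gates of 67NR tumours, where 32.6% of all genes tested were higher and 34.7% lower, the counts were 18 and 14 of 78 for mitochondrial ribosomal proteins, 5 and 42 of 84 for cytosolic ones (median -0.30), 0 and 4 of 6 for complex III assembly and 9 and 2 of 19 for complex IV assembly. Ucp2, a carrier of the inner membrane, was the most changed carrier in CD45+ cells, at 2.79 ± 0.11 (SE, adjusted p = 1.57e-09, edgeR) in 66cl4 and 1.85 ± 0.22 (SE, adjusted p = 2.07e-05, edgeR) in 67NR tumours.

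Promoters were compared because the nuclear members are separate genes that must supply shared complexes. RefSeq windows of GRCm38.p6, 250 bases before to 50 after a start, were at hand for 64 of the 85 nuclear symbols and for 27025 genes in all, and each motif was searched on both strands. The core of the NRF1 motif, GCGCATGCG, occurred in 8 members (12.5%) and in 1.95% of all genes. The YY1 core AAGATGGCG occurred in 7 members (10.9%) and in 1.64% of all genes, the ETS core CCGGAAGT in 5 (7.81%) and 4.31%, and CCAAT in 27 (42.2%) and 41.1%. A match is a description of letters and not a binding site. The windows around matches in 2 NRF1 and 2 YY1 members are shown 5′ to 3′ on the strand of the gene with the match in capitals, to show where it lies. The capitals are alike by the search itself, and the match in Ndufa8 is to the opposite strand and so reads as the reverse complement.
Ndufa8 (chr2:36049329-36049357, minus strand): tcgctggagaCGCATGCGCagatggtacc
Atp5k (chr5:108434431-108434459, minus strand): tttcactgcgGCGCATGCGcctttctggc
Ndufc1 (chr3:51408915-51408943, minus strand): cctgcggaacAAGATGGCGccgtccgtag
Atp5j2 (chr5:145191500-145191528, minus strand): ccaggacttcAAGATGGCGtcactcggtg

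Members that share a core did not share a size of change. In CD45- cells the 8 with the NRF1 core ran from Ndufa11 at -0.78, Atp5l at -0.75 and Ndufa8 at -0.60, which were lower in 66cl4 by edgeR, to Uqcrc1 at 0.27, and none was higher. The 7 with the YY1 core ran from Ndufs7 at -0.16 to Atp5j at 0.90, and Atp5j, Ndufa9 at 0.64 and Ndufc1 at 0.26 were higher in 66cl4 while none was lower. Of all genes tested in CD45- cells, 33.3% were higher and 34.1% lower. The counts among 8 and 7 members are small and carry no test.

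Chromosomal neighbours were read beside the members, with the median log2 fold change of the 10 tested genes on each side. In CD45- cells the log2 fold change of 78 nuclear members and that of their neighbourhood had a Pearson's r of 0.39 and a Spearman's rho of 0.46, against 0.19 and 0.25 over 14378 genes. In CD45+ cells the values were 0.24 and 0.33 over 77 members, against 0.16 and 0.14 over all genes. Between gates they were 0.01 and 0.10 over 76 members in 66cl4 tumours and 0.12 and 0.38 over 80 in 67NR tumours, against 0.25 and 0.19 and 0.26 and 0.21 over all genes. Genes are not independent replicates, all points share the same libraries, and neighbourhoods of nearby members overlap, so these are descriptions. Members of CD45- cells chosen after their values were seen included Ndufb8 at 1.28 with neighbours at 1.23, Atp5j at 0.90 with 0.75, Atp5h at 0.65 with 0.91 and Atp5b at -0.57 with -0.64. Cox7b2 at 3.20 lay among neighbours at -0.27, and Ndufa1 at -1.42 among neighbours at 0.03.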

How the data were processed

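mRNA was sequenced from 20 libraries, CD45+ and CD45- cells of 5 animals for each of 2 tumours. The authors trimmed reads with fastp, quantified transcripts with Salmon 1.3.0 and summed them per gene with tximport, so the deposited values are estimated counts, rounded here to whole numbers. The submitters' processing notes name the human build GRCh38 although all identifiers are mouse genes, so coordinates come only from the GRCm38 reference tables. Symbols matched 51492 of 52783 identifiers. Genes passing filterByExpr were tested with edgeR 4.0.16 (quasi-likelihood, TMM) in R 4.3.3, on the 2 groups compared or on all 20 libraries for the interaction, with Benjamini-Hochberg adjustment over all genes tested. A change passed at an adjusted p under 0.05, and larger changes also exceeded 1 on the log2 scale. Normalised counts use DESeq2 1.42.0 size factors. TPM used reference lengths, which 1291 identifiers lack (2.58% of counts). The pipeline was tested on simulated data with 200 genes changed by 1 on the log2 scale. For the comparison of CD45- cells 178 were recovered, and 4.81% of calls were false. That share was 9.24% with the replicate block and 22.5% by DESeq2. For the interaction 89 were recovered and 3.26% of calls were false, or 6.45% with the block. In the data 33.3% of the genes tested in CD45- cells were higher and 34.1% lower, far more than were simulated. These shares of false calls need therefore not hold for the data.

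Named members were the 5 highest and 5 lowest passing log2 fold changes per comparison with a mean count of at least 10, the 13 mitochondrial genes and the isoform pairs. Other members named in the text, among them those without 66cl4 animals 5 and 6 and the subunits cited by complex, were chosen after their values were seen. Members and lists were chosen with earlier results of these data known. The gates of an animal come from the same tumour by title, and their deviations correlated at 0.025 to 0.148 in 66cl4 and -0.0033 to 0.324 in 67NR. Alternatives covered scaling, filter, tool, libraries in the fit, replicate block, copies and left-out libraries. Proteins and genome sequence were not used here.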

Additional observations from a re-analysis of the deposited data

Results flagged for a closer look

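The tumour difference of 11 named members depended on the gate by the interaction test of edgeR over all 20 libraries. All 11 had been named as extremes of a comparison in these same data, so this is in part built in by that choice. Of all 93 members tested 12 lay above 0 and 14 below, where 21.9% of the 16453 genes tested lay above and 21.2% below. The interaction was -2.57 for Cox7b2, -1.27 for mt-Nd6, -1.19 for Ndufb8, -1.15 for Ndufa4, -0.99 for Atp5o and -0.83 for Atp5j on the log2 scale, so that these were more in favour of 66cl4 among CD45- than among CD45+ cells. It was 1.51 for Uqcrq, 1.20 for Ndufa1, 0.98 for Ndufv2, 0.45 for Cox5a and 0.45 for Ndufa12, where the reverse held. The adjusted p-values of Cox5a (0.0283) and Ndufa12 (0.041) lay closest to the threshold by edgeR. The interaction of Cox5a did not pass without any of 11 libraries left out in turn, and that of Ndufa12 did not pass without any of 15, with the animal as a block (adjusted p = 0.0826) or without 66cl4 animals 5 and 6 (adjusted p = 0.157), with values from 0.30 to 0.53 and from 0.28 to 0.49 over all alternatives. The interactions of the other 9 passed under all alternatives that were run.

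Atp5g2, a gene for the c subunit of the ATP synthase ring, was at 4216 normalised counts in 66cl4 CD45- animal 6, apart from the other libraries of its group, whose values lay between 3187 and 3423. It was the only library apart in 70 groups of 5 libraries looked at, and chance sets about 1 in 20 groups apart.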

How the results depend on the processing

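The replicate block took the number in the titles as a term. Across tumours a shared number does not mean a shared animal, and deviations of such pairs correlated at -0.145 to 0.0829. Libraries of 66cl4 animal 3 and 67NR animal 1 have no partner of their number there, so under the block they add nothing to a tumour difference. In CD45+ cells the members higher in 66cl4 went from 1 to 0 with the replicate block, with no filter, and without 66cl4 animals 5 and 6. Those lower went from 2 to 1 with the replicate block, to 5 with all 20 libraries in the fit and to 13 without animals 5 and 6, and those past 1 on the log2 scale from 1 to 0 with all 20 libraries and without animals 5 and 6. With copies added, the mitochondrial shares moved to 13.8, 16.8, 19.5 and 22.3% in 66cl4 CD45+, 67NR CD45+, 66cl4 CD45- and 67NR CD45-. With copies added, 5 values changed sign. mt-Atp6 in CD45- cells (-0.28, adjusted p = 0.149, edgeR) passed only as deposited, and mt-Co2 between the gates of 66cl4 (-0.48, adjusted p = 0.0168, edgeR) only with copies. mt-Co2 (0.49 to -0.19) and mt-Co3 (0.17 to -0.23) between the gates of 67NR and mt-Co2 in CD45+ cells (0.02 to -0.22) passed neither way. The replicate block gave 18 higher and 30 lower in CD45- cells, 16 and 27 between gates of 66cl4, 19 and 23 between gates of 67NR, and 12 and 18 for the interaction. Shares of all genes are not given for the block, for no filter or for all 20 libraries in the fit. The counts under them are therefore not read as particular to the members. The cause of these shifts was not tested.

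Leaving out each library in turn, the counts ran from 0 to 1 higher, 1 to 15 lower and 0 to 1 past 1 on the log2 scale in CD45+ cells, and from 17 to 24, 28 to 35 and 11 to 13 in CD45- cells. Between gates they ran from 13 to 23, 18 to 35 and 6 to 8 in 66cl4 and from 13 to 17, 9 to 24 and 6 to 9 in 67NR, and the interactions from 5 to 15 above and 12 to 19 below 0. In CD45+ cells 15 were lower without 66cl4 animal 6, 4 without 67NR animal 1, and 1 without 66cl4 animal 5 or 67NR animal 4. Between gates, 23 were higher without the CD45+ library of 66cl4 animal 4, 35 lower without that of 66cl4 animal 6, and 9 and 11 lower without those of 67NR animals 6 and 7. Interactions above 0 numbered 5 without 66cl4 CD45- animal 5 or 67NR CD45- animal 7, 6 without 66cl4 CD45- animal 3 or 66cl4 CD45+ animal 5, and 7 without 66cl4 CD45+ animal 7. The share of all genes moved too. In CD45+ cells 12.1% were lower without 66cl4 animal 6 and 8.54% without 66cl4 animal 5. For gates and interactions such shares are not given, so these counts are not read as shifts of the members themselves. Depth limits the isoforms near 3 counts a library.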
